A study of Homo sapiens with 2 samples.

Results

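The glutathione transferases examined here were 10 genes of the 27685 listed, with 28 of the 63714 listed transcripts: GSTP1, GSTM1, GSTM2, GSTM3, GSTM4, GSTA4, GSTO1, GSTK1, MGST1 and MGST3. They were chosen by gene symbol with their measured values in view, because GSTP1 was abundant in one cell line and had no counts in the other. The comparison between the cell lines is therefore given as a description of these genes, without a test. RNA-seq covered 2 established human lung cancer cell lines, H2087 and H596, both labelled as lung adenocarcinoma, with 1 library of each. The paper's methods describe growth in RPMI medium with fetal bovine serum and antibiotics, without naming H596. No transgene or drug treatment is named for either line, and they differed by label in the cell line alone. The paper used the H2087 library, and its text does not describe H596. Total estimated counts were 46961500 in H2087 and 55387847 in H596.

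Glutathione transferases join the tripeptide glutathione to reactive compounds, which makes these compounds more soluble and ready for export from the cell. The cytosolic enzymes fall into classes named alpha, mu, omega, pi, sigma, theta and zeta, the kappa enzyme resides in mitochondria and peroxisomes, and the microsomal enzymes (MGST) are small membrane proteins of a separate family, called MAPEG. GSTP1, the pi enzyme, is known as an abundant transferase of lung epithelium and of many tumors. Its promoter lies in a CpG island that is known to be methylated in prostate cancer; DNA methylation was not analysed here. GSTM1 and GSTT1 are known for common deletions of the whole gene in human populations.

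The labelled cell type was compared with its markers before the members were read. All 6 epithelial markers (EPCAM, KRT7, KRT8, KRT18, KRT19 and CDH1) had an FPKM of at least 52.3 in both libraries. FPKM is the number of fragments scaled to transcript length and to the mapped fragments of the library, so it can be compared between genes of different length. The 6 lung adenocarcinoma markers (NKX2-1, NAPSA, SFTPB, SFTPC, SFTPA1 and SFTPA2) summed to 263 FPKM in H2087 and to 0.602 in H596, and in H596 SFTPB, SFTPA1 and SFTPA2 had 0 counts. In H2087, SFTPC had 0 counts and SFTPB was at 0.123 FPKM. The 6 squamous markers (TP63, KRT5, KRT6A, KRT14, DSG3 and SOX2) summed to 40.8 in H2087, where KRT5, KRT14 and DSG3 had 0 counts, and to 307 in H596. SOX2 made up 39.1 of the sum in H2087 and was at 56.5 in H596, under 2-fold. The H596 library thus went against its label at these markers, and their part in the differences below was not tested. Of 8 markers of immune, stromal and endothelial cells, PTPRC and CD3E had 0 counts in both libraries, and the summed FPKM of the 8 was 132 in H2087, of which CD68 made up 128, and 36.7 in H596. The stromal marker DCN went the other way, with 0 counts in H2087 and 2361 counts (9.77 FPKM) in H596, and the endothelial marker VWF had 25 counts in H2087 and 246 in H596.

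GSTP1, GSTM2 and GSTM4 are shown first by the 250 bases before their RefSeq start, because GSTP1 and GSTM2 had counts in H2087 and none in H596, whereas GSTM4, a neighbour of GSTM2, had similar levels in both. The sequences are from RefSeq (GRCh38.p14) and were each found once in GRCh37, the build of the deposited tables. All 3 genes are on the plus strand, and the windows are chr11:67351033-67351282 for GSTP1, chr1:110210429-110210678 for GSTM2 and chr1:110198471-110198720 for GSTM4. Capitals mark CG dinucleotides.
GSTP1: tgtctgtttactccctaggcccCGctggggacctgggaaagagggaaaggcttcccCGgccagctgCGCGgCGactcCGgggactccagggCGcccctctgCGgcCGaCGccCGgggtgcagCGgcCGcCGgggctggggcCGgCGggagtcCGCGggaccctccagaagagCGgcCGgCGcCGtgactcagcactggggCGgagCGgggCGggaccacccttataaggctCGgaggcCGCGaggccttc
GSTM2: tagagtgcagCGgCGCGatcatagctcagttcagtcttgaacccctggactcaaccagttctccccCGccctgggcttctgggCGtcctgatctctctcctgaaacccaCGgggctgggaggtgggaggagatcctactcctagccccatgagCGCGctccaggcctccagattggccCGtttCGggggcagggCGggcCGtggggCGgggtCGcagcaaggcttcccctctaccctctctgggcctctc
GSTM4: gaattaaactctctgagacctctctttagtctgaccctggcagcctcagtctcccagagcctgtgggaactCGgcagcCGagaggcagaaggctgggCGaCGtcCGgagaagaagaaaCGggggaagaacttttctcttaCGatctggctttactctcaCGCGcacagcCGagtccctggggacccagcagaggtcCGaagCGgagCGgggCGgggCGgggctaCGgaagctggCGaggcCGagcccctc

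The GSTP1 window held 28 CG dinucleotides and was 74.8% G or C, the GSTM2 window held 14 and was 65.6% G or C, and the GSTM4 window held 18 and was 62.4% G or C. Over the 35116 RefSeq promoter windows of this length the median was 11, and 15.9% held at least as many as GSTP1. Among the members, GSTP1 had the most, GSTM1 and a window of MGST1 followed with 19 each, and GSTM3, present in both libraries, had 1. That MGST1 window precedes the start at 16500712, which held 1.17% of the gene's FPKM in H2087 and 3.96% in H596. The MGST1 window that ends at 16500578, beside the start that held 98.3% in H2087 and 95.7% in H596, had 12. GSTZ1, a transferase outside the 10, also held 28, and it had 16.2 FPKM in H2087 and 12.7 in H596. A relation of CG content to level was not tested. The deposited model of GSTP1, NM_000852, starts 217 bases before the RefSeq start used here, and those of GSTM2 and GSTM4 start 35 and 23 bases before it, so the windows overlap the first bases of these models. The 10 members had 12 such windows in all, as MGST1 has several starts.

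Each window was also searched on both strands for TGACTCA (the AP-1 motif), for TGACNNNGC (the core of the antioxidant response element, which TGACTCA overlaps when GC follows) and for GGGCGG (the GC box). TGACTCA occurred in GSTP1 alone of the 10 members and in 4.20% of all promoter windows. TGACNNNGC occurred in 4 members, GSTP1, GSTM1, GSTA4 and GSTO1, and in 10.9% of all windows. In GSTP1 both were 1 and the same match, from 66 to 58 bases before the start, with GC boxes from 53 to 48 and from 43 to 38 bases before it. GGGCGG occurred in all members except GSTM3 and GSTA4, and in 42.6% of all windows. The matches to TGACNNNGC, in capitals within 30 bases of each window, are shown for GSTP1 and for the other strongly expressed member that has them, GSTO1. Both were lower in H596, as was GSTM1. GSTA4, with its match from 9 to 1 bases before the start, was higher there by under 2-fold. A relation of the matches to level was not tested. A match of letters is not evidence of a bound factor. The leading GSTO1 transcript in the deposited table, NM_004832, starts at 106014468, inside the GSTO1 window (chr10:106014400-106014649), so the nearer match, from 161 to 153 bases before the RefSeq start, lies within that transcript, as the GSTP1 match lies within NM_000852.
GSTP1: gccggcgccgTGACTCAGCactggggcgga
GSTO1, farther from the start: ggcggagggaTGACTGAGCatttataactt
GSTO1, nearer to the start: cgagatgcttTGACACAGCcccttaagatg

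GSTP1 (gene 2950), on chromosome 11 of hg19 from 67351066 to 67354124, had 19913 counts and an FPKM of 434 in H2087 (95% Wilson interval of the count's share of the library, carried over to FPKM, 428 to 440), and 0 counts in H596. It was the member with the highest FPKM in H2087, where it ranked 143 among all genes, and it was not detectable in H596. A count of 0 allows up to 3 counts, which would be an FPKM of 0.0554 in H596, so the FPKM in H2087 was at least 7829-fold higher. With 1 library per cell line neither this value nor any below has a replicate check, and the intervals and limits cover counting error only. In bulk RNA, fewer cells with a transcript and less of it per cell cannot be told apart. The table lists a single GSTP1 transcript, NM_000852 of 958 bases, so no other listed isoform held reads in H596. No other listed gene overlapped its position, and the GENCODE transcript of the gene used for comparison, 741 bases long, shared no stretch of 50 bases with the other alpha, mu, omega and theta transcripts compared. Other parts of the genome were not compared, so reads that also match elsewhere were not examined.

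Genes at 0 counts in one library were uncommon at such levels in the other. Of 12534 genes that reached 1 FPKM in H2087, 281 (2.24%) had 0 counts in H596, among them GSTP1 and GSTM2. Among the 704 that reached 100 FPKM there, 3 had 0 counts in H596: GSTP1, MT1E and CHI3L1. The reverse held for 4 of the 637 genes that reached 100 FPKM in H596. By the distance between pairs of log2(FPKM + 1) values over the 2 libraries, the 5 genes nearest to GSTP1 were MT1E (distance 0.31), GALNT6 (1.22), CHI3L1 (1.62), NKX2-1 (2.06) and SFTA3 (2.10). With 2 libraries this likeness means a similar level in each and no more.

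The genes around GSTP1 were measured in both libraries. Within 250 kb, 26 other genes were listed, and for 16 of them the mean of both libraries was 1 FPKM or more. None of these 16 had 0 counts in H596. Their differences of log2(FPKM + 1), H596 minus H2087, ran from -2.06 to 0.78 with a median of -0.22, against -8.76 for GSTP1. Of the 16, 14 differed less than 2-fold, beside 32.4% of all genes averaging 1 FPKM or more that differed at least 2-fold. Only 2.24% of all genes that reached 1 FPKM in H2087 had 0 counts in H596, so nothing is read from the lack of zeros among 16. NDUFV1, a subunit of respiratory complex I that starts 20.2 kb beyond GSTP1, reached 207 FPKM in H2087 and 113 FPKM in H596. The 2 neighbours that were at least 2-fold lower in H596 also lay on that side: NUDT8, with 24.7 FPKM in H2087 and 5.15 in H596, and ALDH3B2, an aldehyde dehydrogenase, with 4.68 in H2087 and 0.869 in H596. On the other side, CDK2AP2, 74.9 kb from GSTP1, reached 45.9 FPKM in H2087 and 35.9 FPKM in H596.

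**Figure D1:**
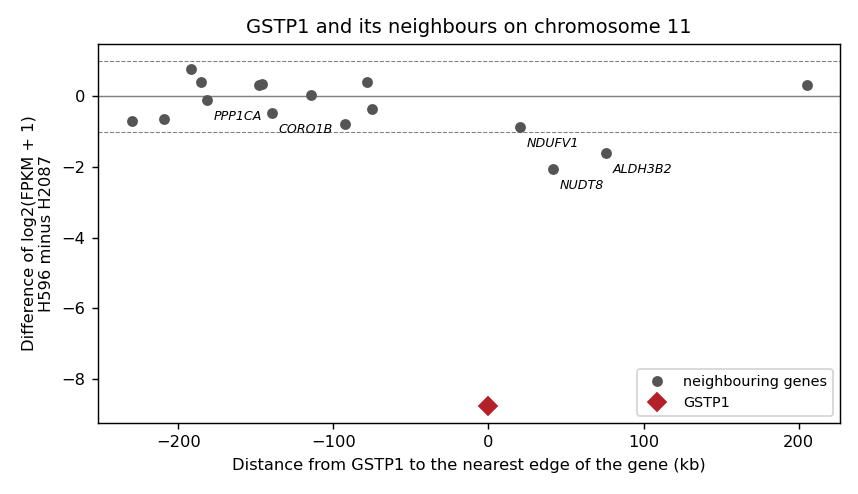
Difference of log2(FPKM + 1), H596 minus H2087, against the distance in kb from GSTP1 (red diamond, at -8.76) for the 16 neighbouring genes averaging 1 FPKM or more (grey points). Dashed lines mark a 2-fold difference, and 14 of the 16 neighbours lie between them. Over all genes averaging 1 FPKM or more, 32.4% differed at least 2-fold.

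In H596, 8 of the 10 members had counts, and 7 reached 1 FPKM. MGST1 led, followed by GSTK1, MGST3 and GSTO1, and these 4 were the members that reached 10 FPKM. In H2087, the order was GSTP1, MGST1, GSTO1, GSTK1 and MGST3, and all 10 members had counts. Counting intervals of members next to each other in the order did not overlap, except for GSTA4 and GSTM2 in H2087 and GSTM4 and GSTA4 in H596. Summed over the 10 members the FPKM was 916 in H2087 and 224 in H596, and without GSTP1 it was 482 in H2087, 2.15 times the H596 value. Of the 916 in H2087, GSTP1 made up 47.3% and MGST1 28.9%. The share of GSTP1 depends on its listed model of 958 bases, where the GENCODE transcript used for comparison has 741. FPKM is divided by length, so a shorter model would give a higher value from the same counts. In H596, MGST1 held 45.4%, GSTK1 25.5%, MGST3 11.7% and GSTO1 9.86%. The membrane-bound members MGST1 and MGST3 together had a summed FPKM of 308 in H2087 and 128 in H596.

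**Figure D2:**
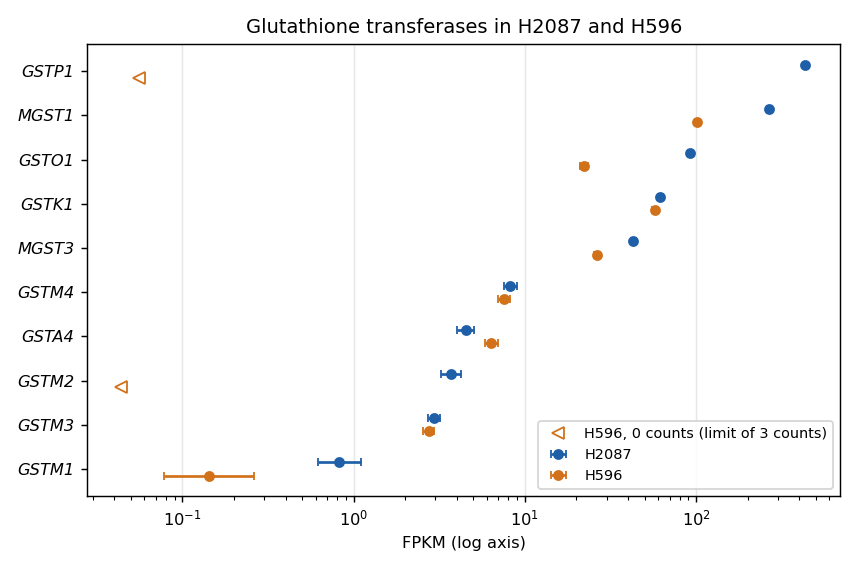
FPKM (log axis) of the 10 members in H2087 (blue) and H596 (orange), 1 library each; bars are 95% counting intervals and open triangles mark the limit of 3 counts where a member had 0 counts. GSTP1 falls from 434 to under 0.0554, and GSTK1, GSTM4 and GSTM3 stay close together.

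**Figure D3:**
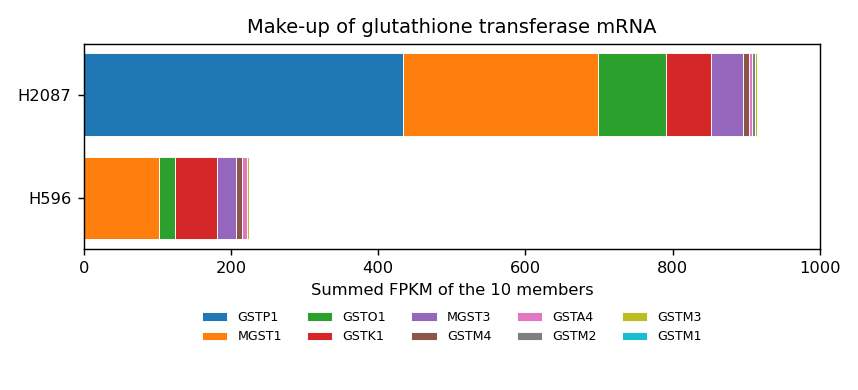
Summed FPKM of the 10 members in each library, divided by member. The bar is 916 long in H2087, with GSTP1 as its largest piece, and 224 in H596, with MGST1 as its largest piece.

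Across all genes, 13048 averaged 1 FPKM or more over both libraries and were compared as log2(FPKM + 1) in H596 minus that in H2087, a scale that understates the changes of low genes. A difference of at least 1, that is 2-fold on this scale, was called in 32.4% of them, 14.2% lower and 18.2% higher in H596, and the median of all was 0.12. This balance depends on the processing: with TMM scaling 16.3% were lower and 15.4% higher, and with TPM 13.9% were lower and 24.9% higher. An FPKM of 1 is 2.14 TPM in H2087 and 2.42 TPM in H596, while the filter and the added 1 were kept. The shares with TPM therefore reflect these settings as well as the scaling between the libraries. Of the 10 members, 9 entered this comparison and GSTM1 did not. GSTP1 and GSTM2 entered only through their level in H2087. The 4 members GSTP1, GSTM2, GSTO1 and MGST1 were called lower in H596, 0 were called higher and 5 were under 2-fold. The median over the 9 was -0.68. Since the members were chosen with these values known, the counts describe them and nothing is read from the comparison with all genes.

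The cytosolic omega enzyme differed most after GSTP1 among the abundant members. GSTO1 (gene 9446), which also reduces dehydroascorbate and some arsenic compounds, lies on chromosome 10 from 106013952 to 106027222. It had 4449 counts and an FPKM of 92.5 (89.8 to 95.3) in H2087, and 1260 counts and an FPKM of 22.1 (20.9 to 23.3) in H596. The ratio of H2087 to H596 was 4.19, with an exact counting interval from 3.93 to 4.46. NM_004832 held 97.4% of the gene's FPKM in H2087 and 98.1% in H596. GSTO2, the adjoining omega gene, which was not among the 10, reached 50.8 FPKM in H2087 and 11.2 FPKM in H596, a difference of -2.09 against -2.02 for GSTO1. Of the 4 other genes within 250 kb of the omega pair that averaged 1 FPKM or more, 0 were called lower in H596 and 2 higher. Over all genes 14.2% were called lower and 18.2% higher, so nothing is read from the count of 0 among 4.

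The microsomal members were lower in H596 as well, MGST1 by more than MGST3. MGST1 (gene 4257), which conjugates and reduces lipid peroxides at membranes, occupies chromosome 12 from 16500076 to 16530123. The FPKM was 265 (260.1 to 269.7) from 11800 counts in H2087 and 102 (99.0 to 104) from 5362 counts in H596, a ratio of 2.60 (2.52 to 2.69). It ranked 227 among all genes in H2087 and 623 in H596. Of its 9 listed transcripts, those that start at 16500577 held 98.3% of the FPKM in H2087 and 95.7% in H596, and those that start at 16500712 held 1.17% in H2087 and 3.96% in H596. Their division between overlapping transcripts is an estimate whose error is not covered by the intervals. MGST3 (gene 4259), on chromosome 1 from 165600110 to 165625372, reached 42.9 FPKM (41.4 to 44.4) in H2087 and 26.3 FPKM (25.2 to 27.4) in H596. Its ratio was 1.63 (1.54 to 1.72), beyond counting error and below the 2-fold limit.

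GSTK1 (gene 373156), the kappa enzyme, on chromosome 7 from 142960522 to 142966222, differed little. From 3195 counts it reached 61.8 FPKM (59.7 to 64.0) in H2087, and from 3549 counts 57.2 FPKM (55.4 to 59.1) in H596. The ratio of H2087 to H596 was 1.08 (1.03 to 1.13) as deposited. When FPKM was rescaled to TPM, in which all transcripts of a library sum to the same total, its difference changed sign from -0.11 to 0.07, so it has no direction that holds under both scalings. NM_015917 was its leading transcript in both libraries, with 79.6% of the gene's FPKM in H2087 and 73.5% in H596, and NM_001143679 held 14.5% in H2087 and 22.2% in H596.

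Of the 4 mu genes among the members, which lie in 1 cluster on chromosome 1, GSTM3 and GSTM4 had similar levels in both libraries and GSTM1 and GSTM2 were lower in H596. GSTM4 (gene 2948) reached 8.24 FPKM (7.58 to 8.95) in H2087 and 7.51 FPKM (6.94 to 8.14) in H596. GSTM3 (gene 2947), on the minus strand at the far end of the cluster, had 2.95 (2.72 to 3.20) in H2087 and 2.74 (2.54 to 2.96) in H596. The intervals overlapped for each of these genes, and their small differences, -0.12 and -0.08, turned positive with TPM. The ratio of H2087 to H596 had an interval from 0.976 to 1.23 for GSTM4 and from 0.961 to 1.21 for GSTM3.

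GSTM2 (gene 2946), from 110210644 to 110226619, had 213 counts and an FPKM of 3.69 (3.22 to 4.22) in H2087 and 0 counts in H596. Its limit in H596 was an FPKM of 0.0440, and so the value in H2087 was at least 83.7-fold higher. All its counts in H2087 were assigned to NM_000848. GSTM1 (gene 2944), from 110230418 to 110236367, had 47 counts and an FPKM of 0.826 (0.621 to 1.10) in H2087 and 10 counts and an FPKM of 0.143 (0.0776 to 0.263) in H596, a ratio of 5.78 (2.88 to 12.8). GSTM5, the remaining gene of the cluster, had 0 counts in both libraries. The values of GSTM1 and GSTM2 are uncertain beyond counting, since their transcripts are alike: of the 50-base stretches of the GENCODE transcript of GSTM1, 57.9% occurred unchanged in a transcript of another gene compared, most of them in GSTM2, and of those of GSTM2 46.1% did. The shares were 37.9% and 37.0% for stretches of 100 bases. GSTM4 shared 18.7% of its 50-base stretches, and GSTM3 shared 0. The read length and the handling of reads with several matches are not given in the sources used here. Of the 8 genes within 250 kb of the cluster that averaged 1 FPKM or more, 2 were called lower and 1 higher in H596, beside 32.4% called over all genes, and 0 had 0 counts there.

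GSTA4 (gene 2941), the alpha enzyme known for its activity towards the lipid peroxidation product 4-hydroxynonenal, was the only one of the 9 members compared with a higher value in H596 by FPKM as deposited; with TPM, GSTK1, GSTM3 and GSTM4 were higher there as well, each by a difference of at most 0.07. On chromosome 6 from 52842746 to 52860178, it had 290 counts and an FPKM of 4.50 (4.01 to 5.05) in H2087 and 485 counts and an FPKM of 6.37 (5.82 to 6.96) in H596. The ratio of H596 to H2087 was 1.41 (1.22 to 1.64), and the difference of 0.42 was under 2-fold.

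Of the 12 other glutathione transferases listed, 4 (GSTA3, GSTA5, GSTM5 and HPGDS) had 0 counts in both libraries. Only 5 of the 12 entered the comparison. Of these, 1 (GSTO2) was called lower in H596 and 0 higher, beside 14.2% and 18.2% over all genes. GSTT1, the theta enzyme, reached 29.4 FPKM in H2087 and 27.2 FPKM in H596, so transcripts of the gene were present in both. MGST2 reached 27.2 FPKM in H2087 and 25.3 FPKM in H596, and GSTZ1, the zeta enzyme of tyrosine breakdown, had 16.2 in H2087 and 12.7 in H596. GSTA1 had 7 counts in H2087 and 105 in H596, with an FPKM of 1.34 there, and GSTA2 reached 1.85 FPKM in H2087 and 0.752 FPKM in H596. GSTT2 and GSTT2B, near-identical copies, were at 1.49 and 1.27 FPKM in H2087 and at 0.484 and 0 in H596, and reads may have been divided between them. Over all 22 transferases the summed FPKM was 1044 in H2087 and 303 in H596, of which the 10 members made up 87.7% and 74.0%.

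The genes that make and recycle glutathione were compared as a list of 14, of which 13 were compared. GCLC and GCLM, the subunits of the enzyme that limits glutathione synthesis, were called lower in H596: GCLC went from 179 FPKM in H2087 to 21.0 in H596, and GCLM from 32.3 to 4.63. SLC7A11, the cystine transporter that supplies the cysteine, was called lower too, with 27.6 in H2087 and 3.46 in H596, and so was GGT7, with 10.4 in H2087 and 1.56 in H596. GGT6 and CHAC1, which breaks down glutathione, were called higher. CHAC1 had 4.89 in H2087 and 19.0 in H596, and GGT6 had 4 counts in H2087 and an FPKM of 58.9 in H596. GGT6 entered only through its level in H596. The other 7 were under 2-fold, so that 4 were called lower and 2 higher, beside 14.2% and 18.2% over all genes. Among these 7, SLC3A2, with the highest FPKM of the list in H596, had 169 in H2087 and 314 in H596. GGCT had 99.8 in H2087 and 151 in H596, and CHAC2 went the other way, with 9.59 in H2087 and 5.06 in H596. GSS, the second enzyme of synthesis, reached 81.6 FPKM in H2087 and 89.9 FPKM in H596, and GSR, which reduces oxidized glutathione, had 36.6 in H2087 and 22.8 in H596. The median difference of the 13 was -0.44, against 0.12 for all genes.

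Of 9 glutathione peroxidases and related genes, 6 were compared, and their median difference was -0.16. GPX3, the secreted peroxidase, had 6658 counts and an FPKM of 77.7 in H2087 and 0 counts in H596, where it was called lower, having entered only through its level in H2087. GPX2 was called higher, with 4.13 in H2087 and 11.6 in H596. These were the 2 calls among the 6, beside 32.4% called over all genes. GPX1 reached 142 FPKM in H2087 and 139.8 FPKM in H596, and GPX4, which reduces lipid peroxides, had 272 in H2087 and 201 in H596. PRDX6, a peroxidase that GSTP1 is known to reactivate, had 175 in H2087 and 141 in H596, under 2-fold.

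For the export and further processing of glutathione conjugates, 7 of the 11 genes reported were compared, again beside 14.2% lower and 18.2% higher over all genes. ABCC2, ABCC3, ABCG2 and ACY1 were called lower in H596, ABCC5 was called higher and 2 were under 2-fold. ABCC2 and ABCG2 were below 1 FPKM in H596 and entered only through their level in H2087. For the conjugate exporter ABCC3 the difference was -3.01, from 21.5 FPKM in H2087, and ACY1, which deacetylates mercapturates, had 51.0 in H2087 and 18.0 in H596. ABCC1, a broad exporter of glutathione conjugates, had 17.5 in H2087 and 24.4 in H596.

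**Figure D4:**
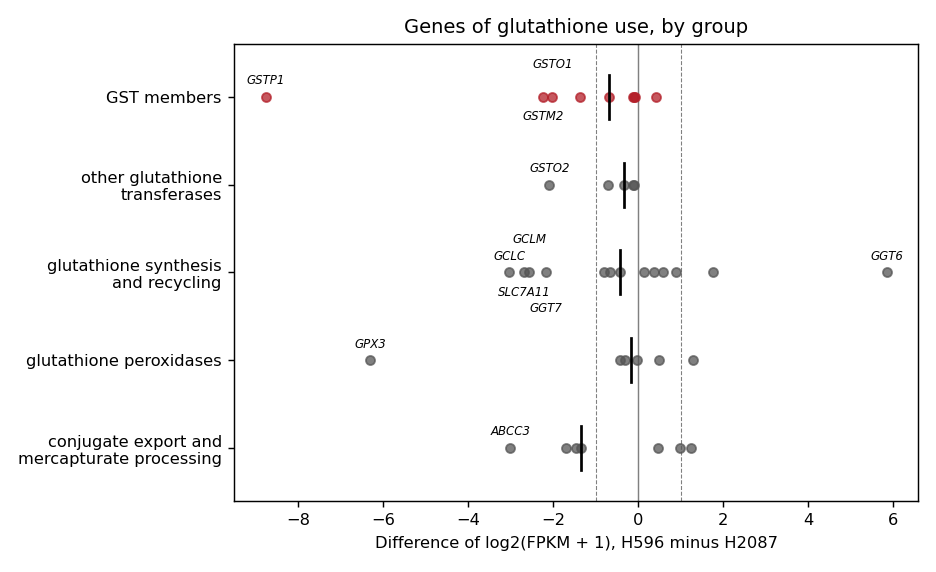
Difference of log2(FPKM + 1), H596 minus H2087, for the genes of each group that averaged 1 FPKM or more; black bars are medians of the genes shown, dashed lines mark 2-fold, and genes past a difference of 2 are named. The member GSTP1 lies at -8.76, GPX3 at -6.30 and GGT6 at 5.86.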

How the data were processed

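RNA-seq tables of 2 libraries, 1 of H2087 and 1 of H596, were analysed. Per the labels and the paper's methods, the authors isolated total RNA, made stranded mRNA libraries, aligned reads to hg19 with HISAT2 2.0.5 and estimated abundance with StringTie 1.3.3b. For each gene and transcript the authors deposited an estimated count, a whole number whose making is not given in the sources used here. The authors deposited FPKM values beside it, which they normalized to transcript length and to mapped fragments. All columns of per-sample values had a sample.

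From these, the rows of the 10 symbols were read. Differences are log2(FPKM + 1), H596 minus H2087, among genes averaging 1 FPKM or more. Differences of 2-fold were called, with no test, because each cell line had 1 library. Intervals are 95% Wilson intervals and, for ratios, exact Clopper-Pearson intervals (scipy 1.17.1); 3 counts were the limit for a count of 0. The calls and intervals were tried on simulated counts with counting error alone, as the intervals assume. This checks the calculation and says nothing about variation between libraries. Alternatives were a pseudocount of 0.1, TPM, TMM scaling (edgeR 4.0.16), median centring, other filters and transcript values. Promoter sequences matched all 10 symbols. Genes named are the members, genes of the fixed lists, neighbours within 250 kb and the 5 genes nearest to GSTP1 in level. Members and lists were chosen with earlier results of these data known. The transferases set beside the members, the motifs and the stretch lengths were likewise chosen with values known. A gene of the export list is not reported here, so the median plotted for that list covers only the genes shown. Tables were handled with pandas 2.3.3 in Python 3.11.15.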

Additional observations from a re-analysis of the deposited data

How the results depend on the processing

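The number of members differing at least 2-fold was 4 as deposited, all lower in H596, and between 3 and 5 under 8 alternatives. It was 3 among genes averaging 10 FPKM or more, since fewer genes were compared. With TPM it was 5, because the filter was on TPM and GSTM1 passed it. Over all genes compared, 32.4% were called as deposited, 29.6% at 10 FPKM or more and 38.7% with TPM. The share was 23.9% with no filter beyond a mean FPKM above 0, where 4 members were called. Nothing is read from the member counts against these shares. Across 6 rescalings and transcript choices, the differences of the 9 members compared were recomputed 54 times, with 3 changes of sign (GSTK1, GSTM3 and GSTM4 with TPM) and 0 changes of the 2-fold call. Part of this was fixed in advance. The sum over transcripts gave the deposited difference for all 9, and the highest transcript gave it for GSTP1, GSTM2, GSTA4 and MGST3. No rescaling can raise the 0 of GSTP1 and GSTM2 in H596. TMM scaling moved the median of all genes from 0.12 to 0.00 and TPM moved it to 0.29, so small differences are not read as a direction. With TPM, GSTP1 had 926 in H2087, and the members summed to 1956 in H2087 and 543 in H596, by construction of that unit. In estimated counts the sums were 44169 and 14181, and the shares of GSTP1 in H2087 and MGST1 in H596 were 45.1% and 37.8% in place of 47.3% and 45.4%, since counts are not divided by length. By the highest transcript of each member alone, the sums were 883 and 198, and the shares 49.1% and 46.8%. The FPKM of GSTP1 in H596 stayed at 0 in each rescaling, which no scaling can change, as its single transcript had 0 counts. No paired analysis was possible because there was a single library per cell line, which also means that none could be left out. Depth limits GSTM1, with 10 counts in H596, and the lower bounds of GSTP1 and GSTM2.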

Other observations

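Of the other MAPEG genes, the family of the microsomal transferases, PTGES, the inducible prostaglandin E synthase, went the opposite way to MGST1: it reached 12.2 FPKM in H2087 and 79.8 FPKM in H596, a ratio of H596 to H2087 of 6.56 (exact counting interval, 6.15 to 7.01). LTC4S, the leukotriene C4 synthase, had 17 counts in H2087 and 46 in H596, and ALOX5AP had 0 and 10.

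Genes near the members differed in both directions; these were chosen after their values were seen. COL17A1, a hemidesmosome collagen that lies 168 kb from the omega genes, was at 0.160 FPKM in H2087 and at 113 FPKM in H596, while GSTO1 and GSTO2 were lower in H596. LMO3, 171 kb from MGST1, had 2634 counts and an FPKM of 14.8 in H2087 and 0 counts in H596, whereas MGST1 kept an FPKM of 102 there. CSF1, 169.6 kb from the mu genes, reached 4.91 FPKM in H2087 and 36.0 FPKM in H596.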
